A study of Homo sapiens with 12 samples.

Results

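The subunits of the Mediator complex were examined in RNA-seq data of K562 cells, a human leukemia cell line with erythroid features, treated with the USP7 inhibitor FT671. USP7 is a deubiquitinase and a component of PRC1.1, a variant Polycomb complex, and the RNA-seq asked how its inhibition changes expression. Cells received DMSO or 10 μM FT671 for 48 h, with 3 libraries per group from experiments that the study calls independent, and both groups were K562 cells with no other treatment or engineered allele named in the labels. The members are all protein-coding genes whose symbol is MED followed by a number, 30 of the 60609 genes listed in each count file. Chromatin immunoprecipitation samples of the same series were not analysed here.

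Mediator is a large complex that passes signals from DNA-bound transcription factors to RNA polymerase II at promoters. Its head and middle modules contact the polymerase, its tail module is bound by many activators, and MED14 forms the backbone that joins them. A separate kinase module, made of MED12, MED13, cyclin C and CDK8 or their paralogs, binds to the rest of the complex reversibly and can keep the polymerase away from it. The genes were grouped as head (11 genes), middle (9 genes), tail (5 genes), backbone (MED14) and kinase module (4 genes). MED27, MED28, MED29 and MED30 were placed in the head and MED19 in the middle, although structures differ on these.

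Total counts were between 4555220 and 14250500 per library, and 3 counts, the smallest number regarded as detectable, corresponded to between 0.208 and 0.666 CPM (counts scaled to library size). This limit covers counting error only, since no molecular identifiers are named for these libraries. In bulk RNA, a change in the mix of cell states and a change in RNA per cell cannot be told apart. Library sizes were adjusted with edgeR's TMM factors. The K562 identity was checked with 9 erythroid and leukemia marker genes, which summed to between 1230 and 1280 CPM in DMSO and between 986 and 1020 CPM after FT671, with the embryonic globin HBE1 between 0.37 and 1.33 CPM in all libraries. Of 12 markers of other blood cells, 5 had at most 3 counts in every library, MS4A1, ELANE and PF4 had none, and the sum was between 81.4 and 84.6 CPM in DMSO and between 106 and 110 CPM after FT671, held mostly by LYZ and CD3D. The part of these markers in the results below was not tested. The mRNA of USP7, the drug's target, was 119 ± 12.3 CPM with DMSO and 33.1 ± 3.38 CPM with FT671 (SD, n = 3), having decreased by 1.82 on the log2 scale (edgeR adjusted p = 2.66e-08), although the drug acts on the protein.

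Of the 30 Mediator genes, 29 had enough counts for a test by edgeR's quasi-likelihood method, where p-values were adjusted by Benjamini-Hochberg over 13895 genes. Adjusted p-values below come from this test unless another is named. At an adjusted p-value of 0.05, 11 of them fell after FT671 and 3 rose, which is 37.9% and 10.3% of the members tested. Over all genes tested, 26.5% fell and 23.6% rose. The remaining 15 members did not pass the threshold. Over the 29 members the log2 fold changes had a median of −0.16, against −0.01 over all genes tested. At a stricter cutoff of 1e-05 in edgeR, MED13L was the 1 member called, where 4.13% of all genes fell and 1.79% rose. With DESeq2's Wald test, the package in which the study's methods apply that cutoff, MED13L and MED23 were past it as lower and MED24 as higher. Over all genes that test put 1173 of 13895 past it as lower and 880 as higher. Without the filter on low counts 6 members were past it as lower and 1 as higher. Over all 31316 genes then tested, 1757 were lower and 977 higher. In edgeR MED13L itself lay just inside, and no member passed when any 1 library other than DMSO replicate 3 was left out, with at least 10 counts required in every library, or with protein-coding genes alone. In 13 members every FT671 library was below every DMSO library (30.3% of all genes), and in 3 every FT671 library was above (26.8% of all genes).

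By module, the 3 kinase module members that could be tested fell, with a median log2 fold change of −0.52. In the middle module 3 of 9 genes fell and 0 rose (median −0.16), where 6 did not pass the threshold in either direction at an adjusted p of 0.05 from edgeR. In the head module 2 of 11 fell and 2 rose (median −0.11), and in the tail 2 of 5 fell and 1 rose (median −0.05). The shares called were 33.3% lower in the middle, 18.2% lower and 18.2% higher in the head, and 40.0% lower and 20.0% higher in the tail. Over all genes tested 26.5% fell and 23.6% rose, so that the head lay below both shares. The backbone gene MED14 fell. The tail median changed sign with corrections for gene length and GC content, to 0.10 and 0.02. Modules were not tested against each other, and with 3 to 11 genes each these medians describe only the genes listed.

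**Figure D1:**
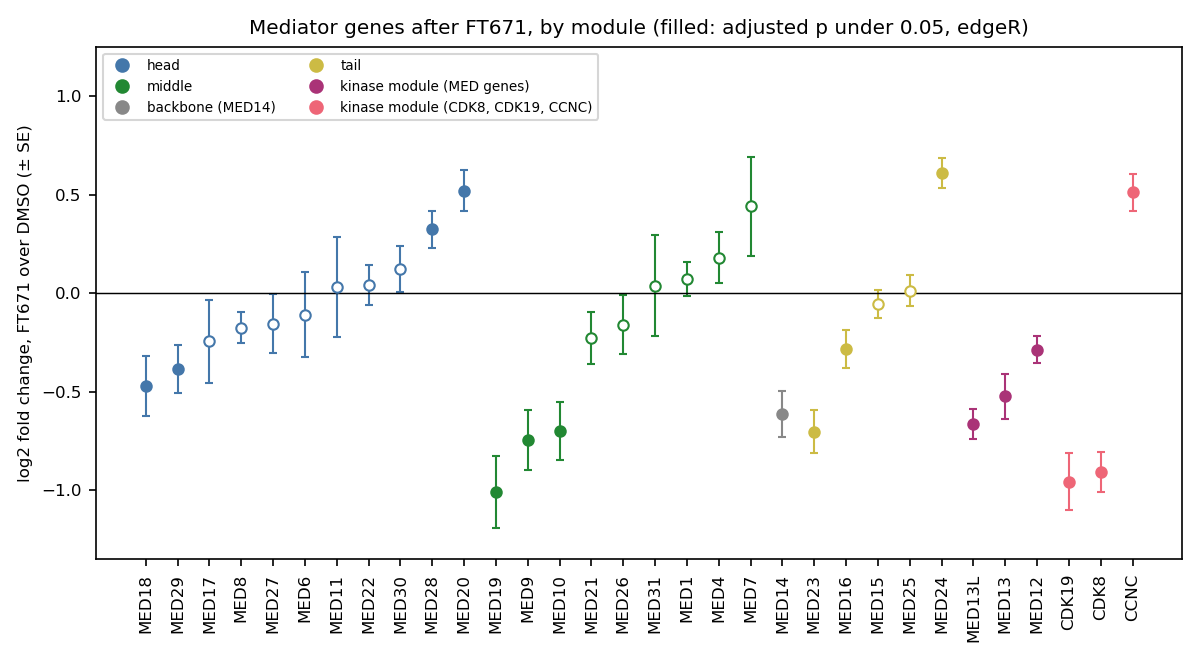
Log2 fold change of FT671 over DMSO for the 29 Mediator genes tested and for CDK8, CDK19 and CCNC, ordered within modules, with bars for the standard error. Filled points passed an adjusted p of 0.05 from edgeR: all 3 kinase module MED genes, CDK8 and CDK19 lie below 0 and CCNC lies above it, and the other modules hold points on both sides.

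In the kinase module, all MED genes with enough counts for a test were lower after FT671. MED13L (chromosome 12 from 115957905 to 116277693 in hg38), one of the paralogous subunits that tether the kinase module to the core, had 286, 293 and 325 CPM in DMSO and 183, 183 and 202 CPM after FT671. All FT671 libraries lay below all DMSO libraries. Its log2 fold change was −0.67 ± 0.0762 (SE, edgeR adjusted p = 8.68e-06). MED13 (chromosome 17 from 61942605 to 62065278), its paralog, had 128, 124 and 172 CPM in DMSO and 91.1, 95.3 and 105 CPM after FT671. The DMSO libraries were uneven, with replicate 3 above the other two. The log2 fold change of MED13 was −0.52 ± 0.113 (SE, edgeR adjusted p = 0.00159), and without DMSO replicate 3 it was −0.37 and still past the threshold.

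MED12 (chromosome X from 71118543 to 71144103), which activates the CDK8 kinase, had 198, 206 and 211 CPM in DMSO and 167, 166 and 171 CPM after FT671. The groups did not overlap, and the change was the smallest of the 3 MED genes of the module called, with a log2 fold change of −0.29 ± 0.068 (SE, edgeR adjusted p = 0.00308). After a correction for gene length it was −0.16 and no longer past the threshold (edgeR adjusted p = 0.0555). MED12L, the paralog of MED12, had 0, 2 and 3 counts in DMSO and 1, 0 and 1 counts after FT671. It was thus at or under the floor in all 6 libraries, too few counts to detect a difference, and the MED12L to MED12 ratio was not compared.

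The partners of these subunits within the module do not carry MED symbols and were followed as a separate list. CDK8 (chromosome 13 from 26254104 to 26420982), the cyclin-dependent kinase of the module, had 58.0, 57.6 and 60.3 CPM in DMSO and 27.5, 30.3 and 34.5 CPM after FT671. This is a fall in every FT671 library, with a log2 fold change of −0.91 ± 0.103 (SE, edgeR adjusted p = 7.89e-06). CDK19, the paralogous kinase, had 30.1, 29.4 and 42.1 CPM in DMSO and 16.4, 16.1 and 18.2 CPM after FT671. Here too DMSO replicate 3 was above the other DMSO libraries and the groups did not overlap. The log2 fold change of CDK19 was −0.96 ± 0.146 (SE, edgeR adjusted p = 1.08e-04), or −0.80 without DMSO replicate 3.

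CCNC (chromosome 6 from 99542387 to 99568825), which encodes cyclin C, the activating cyclin of CDK8 and CDK19, moved the other way. It had 42.4, 42.6 and 49.5 CPM in DMSO and 64.6, 66.0 and 60.2 CPM after FT671, and every FT671 library was above every DMSO library. Its log2 fold change was 0.51 ± 0.0958 (SE, edgeR adjusted p = 5.52e-04). CCNC shares 15.8% of its canonical transcript with exons of TSTD3 on the opposite strand, which had 23.84% as many counts. The part of TSTD3 in the rise of CCNC was not tested. Of the 6 kinase module genes tested, partners included, 5 thus fell (83.3%, against 26.5% of all genes) and CCNC rose (16.7%, against 23.6%). All kept direction and call in the 17 alternative analyses, except that MED12 lost its call after the length correction.

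**Figure D2:**
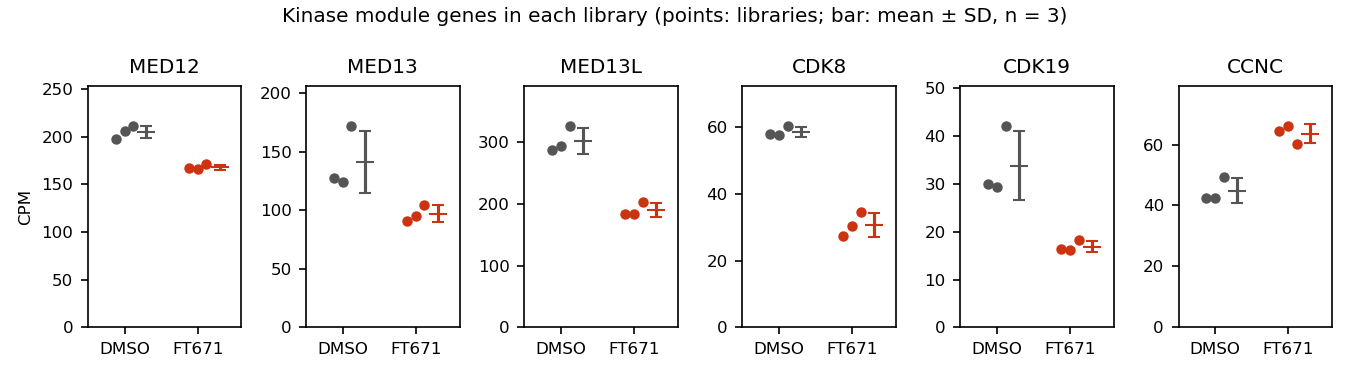
CPM of the 6 tested kinase module genes in each library, DMSO in grey and FT671 in red, with the mean and SD (n = 3) beside the points. In each panel the groups do not overlap; MED12, MED13, MED13L, CDK8 and CDK19 are lower and CCNC is higher after FT671, and DMSO replicate 3 is the highest DMSO point for MED13 and CDK19.

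Whether the paralogs of the kinase module shifted against each other was asked with the log2 ratio of their counts within each library, which does not depend on scaling. The MED13L to MED13 ratio was 1.11 ± 0.168 in DMSO and 0.96 ± 0.0388 after FT671 on the log2 scale (SD, n = 3 each), a difference of −0.143 (two-sided exact permutation test, p = 0.4; 0.8 after Benjamini-Hochberg adjustment over 2 pairs). The CDK19 to CDK8 ratio was −0.81 ± 0.256 in DMSO and −0.86 ± 0.101 after FT671 (SD, n = 3 each), a difference of −0.047 (two-sided exact permutation test, p = 1; also 1 after adjustment). The smallest p that 3 libraries against 3 allow is 0.1, so that the test could not pass 0.05. Within both pairs the groups overlapped, and the sign of the CDK19 to CDK8 difference turned, to 0.101, without DMSO replicate 3.

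For genes at both ends of the response, the promoter sequences of RefSeq (GRCh38.p14) are shown, from 250 bases before to 50 bases after the annotated start. They are MED13L and CDK8, which fell, CCNC, the kinase module gene that rose, and MED19 and MED24, the Mediator genes with the largest fall and the largest rise. Of the 30 members, 22 had a promoter in the table used. CCNC had a pair of overlapping entries, of which the one farther upstream is shown, and the window of MED24 lies inside the span that GENCODE gives this gene. Capitals mark matches on either strand to the E-box CACGTG and to CCAAT, the element bound by NF-Y.
MED13L (chr12:116277644-116277943, minus strand): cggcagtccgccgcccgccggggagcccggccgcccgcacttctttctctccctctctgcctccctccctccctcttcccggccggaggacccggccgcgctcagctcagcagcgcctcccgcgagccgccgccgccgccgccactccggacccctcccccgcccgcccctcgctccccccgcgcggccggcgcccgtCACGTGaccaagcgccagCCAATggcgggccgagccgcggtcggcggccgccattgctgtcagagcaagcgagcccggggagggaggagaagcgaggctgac
CDK8 (chr13:26253879-26254178, plus strand): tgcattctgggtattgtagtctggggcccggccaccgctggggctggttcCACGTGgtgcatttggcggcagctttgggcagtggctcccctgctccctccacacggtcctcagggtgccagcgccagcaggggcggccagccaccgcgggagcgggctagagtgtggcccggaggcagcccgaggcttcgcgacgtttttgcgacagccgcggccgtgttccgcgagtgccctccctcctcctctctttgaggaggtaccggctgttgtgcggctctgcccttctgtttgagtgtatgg
CCNC (chr6:99568765-99569064, minus strand): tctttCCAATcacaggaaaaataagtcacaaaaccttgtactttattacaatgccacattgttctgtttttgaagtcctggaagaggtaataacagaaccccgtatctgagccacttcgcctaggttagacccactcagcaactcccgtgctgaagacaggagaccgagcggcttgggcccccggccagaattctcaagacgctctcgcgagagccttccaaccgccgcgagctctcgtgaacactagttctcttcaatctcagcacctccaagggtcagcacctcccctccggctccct
MED19 (chr11:57712166-57712465, minus strand): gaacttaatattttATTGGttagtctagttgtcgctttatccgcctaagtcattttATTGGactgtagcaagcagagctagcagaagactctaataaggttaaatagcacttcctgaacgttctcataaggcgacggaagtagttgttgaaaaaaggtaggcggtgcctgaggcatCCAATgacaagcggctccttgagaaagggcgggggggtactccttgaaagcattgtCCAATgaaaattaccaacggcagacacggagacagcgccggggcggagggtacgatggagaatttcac
MED24 (chr17:40054359-40054658, minus strand): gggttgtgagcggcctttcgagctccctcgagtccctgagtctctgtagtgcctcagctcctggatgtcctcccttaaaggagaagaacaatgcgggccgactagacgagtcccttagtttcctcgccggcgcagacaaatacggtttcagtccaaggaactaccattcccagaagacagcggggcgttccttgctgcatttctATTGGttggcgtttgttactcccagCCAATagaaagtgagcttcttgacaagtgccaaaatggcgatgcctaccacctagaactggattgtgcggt
The promoter of MED13L held 1 E-box, 1 CCAAT and 43 CG dinucleotides, and that of CDK8 held 1 E-box and 23 CG dinucleotides. MED12 and CDK19, which also fell, had no CACGTG in their windows. MED13, which fell as well, was not among the 22 members with a promoter. The window of CCNC shown had 1 CCAAT and 14 CG dinucleotides. The other CCNC window (chr6:99568611-99568910) had 31 CG dinucleotides and no CCAAT, so that neither trait describes the gene as such. MED19 had 4 CCAAT matches and MED24 had 2, with 14 and 15 CG dinucleotides. These CCAAT counts describe only the windows shown, and the share of all windows with more than 1 match was not counted. The 22 members had 24 windows, of which 1 (4.17%) had CACGTG and 9 (37.5%) had CCAAT, against 7.26% and 34.6% of all 35116 windows of the table. The ETS-type letters CCGGAAG were present in 8 of the 24 (33.3%), from 7 genes, against 10.3% of all windows, and TATAAA in 2 (8.33% against 11.5%). The median number of CG dinucleotides was 21.5 in the windows of the members and 14 in all windows. A match is a description of the letters and not of a bound site.

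In the middle module, MED19, MED9 and MED10 fell. MED19 (chromosome 11 from 57703710 to 57712221), a subunit contacted by the repressor REST among others, had 15.2, 14.9 and 9.8 CPM in DMSO and 7.11, 6.13 and 7.06 CPM after FT671. DMSO replicate 3 was the lowest of its group and still above all FT671 libraries. The log2 fold change of MED19 was −1.01 ± 0.184 (SE, edgeR adjusted p = 4.34e-04), the largest in size among the members, and 10.2% of all genes tested had one at least as large. MED9 had 13.2, 11.5 and 12.4 CPM in DMSO and 7.33, 6.49 and 7.95 CPM after FT671 (−0.74 ± 0.154 on the log2 scale, SE, edgeR adjusted p = 0.00119). MED10, which lies at the hook of the middle module, had 24.2, 21.3 and 21.6 CPM in DMSO and 9.99, 15.9 and 14.7 CPM after FT671. FT671 replicate 1 was the lowest, and without it the log2 fold change of MED10 moved from −0.70 ± 0.148 (SE, edgeR adjusted p = 0.00138) to −0.56.

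The other middle module genes did not pass the threshold. MED1, the subunit through which nuclear receptors and GATA1 contact Mediator, stood at 184 ± 23.1 CPM with DMSO and 193 ± 6.12 CPM with FT671 (SD, n = 3), or 0.07 on the log2 scale. It passed the threshold, as higher, after the gene length correction and without DMSO replicate 3. MED4, MED7, MED21, MED26 and MED31 had log2 fold changes between −0.23 and 0.44, and their groups overlapped except for MED21, which was called lower with the GC correction (−0.32, edgeR adjusted p = 0.0418). MED26, the subunit that recruits elongation factors, shares 45.6% of its canonical transcript with exons of other annotated genes on the same strand, and MED31 shares 75.6% with TXNDC17 on the opposite strand. Reads in shared exons may be missing from the counts of these genes.

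MED14 (chromosome X from 40648305 to 40735858), the backbone, had 72.7, 68.4 and 88.9 CPM in DMSO and 43.1, 49.1 and 55.4 CPM after FT671. The groups did not overlap, and DMSO replicate 3 was again the highest. The log2 fold change was −0.61 ± 0.116 (SE, edgeR adjusted p = 6.01e-04), or −0.50 without that library and −0.46 after the gene length correction, both past the threshold.

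The tail module, which activators bind, held changes in both directions. MED23 (chromosome 6 from 131573966 to 131628242), the target of ELK1 and C/EBPβ, had 35.7, 39.5 and 43.3 CPM in DMSO and 22.7, 24.4 and 24.8 CPM after FT671, groups that did not overlap, with a log2 fold change of −0.70 ± 0.11 (SE, edgeR adjusted p = 1.27e-04). MED24 (chromosome 17 from 40019097 to 40061215), which neighbours MED23 and MED16 in the tail, rose from 108, 108 and 97.6 CPM to 166, 164 and 151 CPM. With a log2 fold change of 0.61 ± 0.0768 (SE, edgeR adjusted p = 2.00e-05) it was the largest rise of a called member. MED16 was lower by a smaller margin, at 71.3 ± 7.72 CPM with DMSO and 59.2 ± 2.21 CPM with FT671 (SD, n = 3), with a log2 fold change of −0.28 ± 0.0951 (SE, edgeR adjusted p = 0.0233). Its annotated exons share 6.04% of their length with CFD on the opposite strand, which had 58.65% as many counts. The share of its canonical transcript in exons of other genes was 0.0% on either strand. The call for MED16 was lost in 5 of the 17 alternatives: with DESeq2's Wald test and without DMSO replicate 1, DMSO replicate 2, FT671 replicate 2 or FT671 replicate 3.

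MED15 (chromosome 22 from 20495913 to 20587632), the subunit through which SREBP proteins act, was the most abundant Mediator transcript by a wide margin. It had 793, 892 and 817 CPM in DMSO and 806, 767 and 839 CPM after FT671, overlapping groups with a log2 fold change of −0.05 ± 0.0711 (SE, edgeR adjusted p = 0.562). In the DMSO libraries MED15 held between 31.2% and 34.8% of all counts of the 30 members. MED25, bound by ETS factors of the PEA3 group, also had overlapping groups, with a log2 fold change of 0.01 ± 0.0804 (SE).

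In the head module, MED20 and MED28 rose and MED18 and MED29 fell. MED20, which forms the movable jaw of the head together with MED18, had 27.2, 25.6 and 26.1 CPM in DMSO and 41.5, 35.9 and 36.6 CPM after FT671 (0.52 ± 0.103 on the log2 scale, SE, edgeR adjusted p = 8.47e-04). Its partner MED18 had 11.1, 11.8 and 12.2 CPM in DMSO and 8.66, 9.38 and 7.6 CPM after FT671. The direct partners therefore moved in opposite directions, with non-overlapping groups for both. The log2 fold change of MED18 was −0.47 ± 0.152 (SE, edgeR adjusted p = 0.0187). That call was lost with DESeq2's Wald test and without DMSO replicate 2 or FT671 replicate 3.

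MED28 rose by 0.33 on the log2 scale, with means of 118 ± 17.1 and 146 ± 3.11 CPM (SD, n = 3, edgeR adjusted p = 0.0102), but did not pass without DMSO replicate 1. It shares 32.4% of its canonical transcript with FAM184B on the opposite strand. MED29 fell, with means of 31.4 ± 3.92 and 24.5 ± 2.48 CPM (SD, n = 3) and a log2 difference of −0.38 (edgeR adjusted p = 0.0169), but did not pass without DMSO replicate 1, FT671 replicate 2 or FT671 replicate 3. MED6, MED8, MED11, MED17, MED22, MED27 and MED30 had log2 fold changes between −0.25 and 0.12 and did not pass the threshold. For MED8 every FT671 library was still below every DMSO library, and 4 alternatives called it lower. MED17, the scaffold of the head, was measured at only 5.45 ± 0.199 CPM in DMSO (SD, n = 3), and 42.4% of its canonical transcript lies in exons of another annotated gene on the same strand, so that its level is uncertain.

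**Figure D3:**
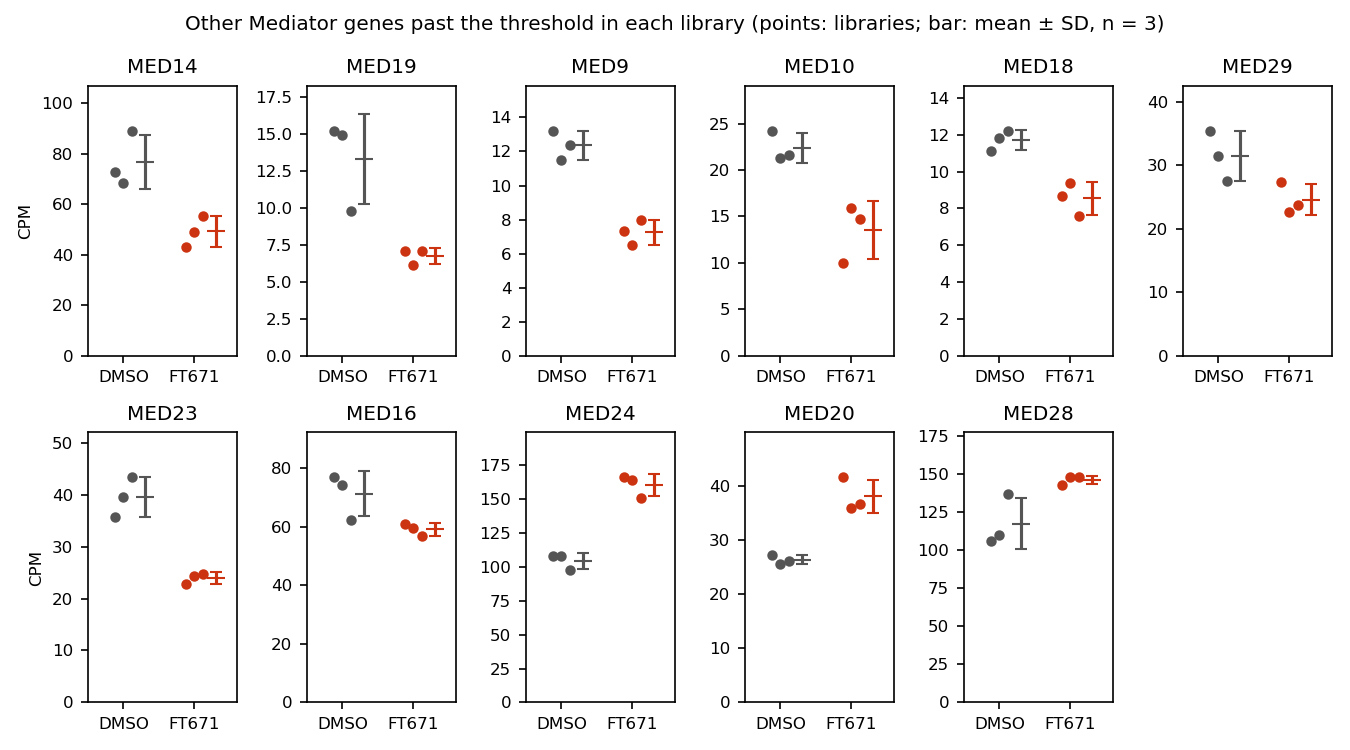
CPM of the 11 called Mediator genes outside the kinase module in each library, DMSO in grey and FT671 in red, with the mean and SD (n = 3) beside the points. MED14, MED19, MED9, MED10, MED18, MED29, MED23 and MED16 are lower after FT671 and MED24, MED20 and MED28 are higher; for MED29, MED16 and MED28 the groups come close to each other.

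Levels were compared between genes as CPM per kilobase of annotated exon. In DMSO MED15 stood highest at 80.4 ± 4.97 CPM per kb, followed by MED8 at 36.9 ± 2.33 and MED1 at 21.4 ± 2.68 CPM per kb (SD, n = 3 each). MED12, MED13 and MED13L stood at 11.8 ± 0.396, 11.1 ± 2.09 and 9.17 ± 0.627 CPM per kb. Per kb of canonical transcript they stood at 29.6, 13.5 and 30.5 CPM, with MED13 well below the others, so that their order depends on the length used. The lowest of the genes tested were MED7 at 1.03 ± 0.15 and MED17 at 0.328 ± 0.012 CPM per kb. Of the 29 pairs of neighbours in this order of all 30 members, 8 had DMSO values that did not overlap, so that most neighbours could not be ranked.

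The order of levels in DMSO and after FT671 was similar (Spearman's rho 0.961 over 30 genes that share libraries and lengths). MED24 moved from rank 6 to rank 3 and MED10 from rank 8 to rank 13. Dividing by the length of the canonical transcript instead of all annotated exons gave a rho of 0.933 with the first order and moved MED13L from rank 12 to rank 4, since its annotated exons sum to 32.9 kb and its canonical transcript to 9.88 kb. Across the 29 tested members the log2 fold change had a Spearman's rho of −0.135 with exon length, against −0.15 over 13872 genes, and of −0.00936 with GC content.

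**Figure D4:**
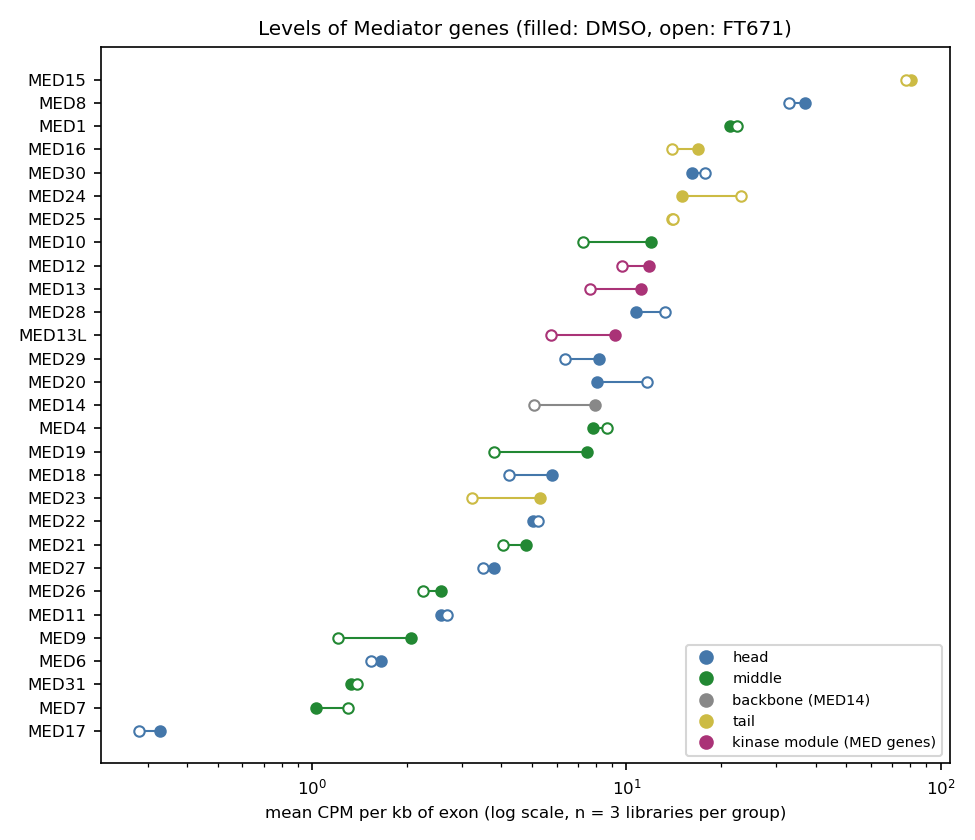
Mean CPM per kb of exon for the 29 tested Mediator genes on a log scale, filled for DMSO and open for FT671 (n = 3 libraries each), coloured by module. MED15 stands apart at 80.4 CPM per kb in DMSO and MED17 is lowest at 0.328, and the 3 kinase module genes all move to the left. Distances between genes depend on the length used.

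Genes that work with Mediator were followed as separate lists. Of 32 general transcription factor genes of the preinitiation complex, 30 were tested, and 12 rose (40.0%, against 23.6% of all genes) and 3 fell (10.0%, against 26.5%), with a median log2 fold change of 0.14. Those with the lowest adjusted p-values were GTF2H3 of TFIIH, which rose by 0.95 on the log2 scale from 30.4 ± 2.95 to 58.3 ± 4.54 CPM (edgeR adjusted p = 7.04e-06), TAF4 of TFIID, which fell by 0.90 (edgeR adjusted p = 1.56e-05), and CCNH, the cyclin of the TFIIH kinase, which rose by 0.56 (edgeR adjusted p = 4.02e-04). Within this list, 5 of the 8 TFIIH genes tested rose (62.5%) and 0 fell, whereas of the 13 TAF genes 3 rose (23.1%, near the 23.6% of all genes) and 1 fell (7.69%), at an adjusted p of 0.05 from edgeR. CDK7 was at a log2 fold change of −0.24 (edgeR adjusted p = 0.0898). The list was not tested against the Mediator genes.

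Of 12 coactivators and cohesin genes that work with Mediator at enhancers, 3 fell (25.0%, near the 26.5% of all genes) and 0 rose, and 9 had no call at an adjusted p of 0.05 from edgeR. Those that fell were the H3K4 methyltransferase KMT2D (log2 fold change −0.76, edgeR adjusted p = 1.94e-06) and the acetyltransferases EP300 (−0.65, edgeR adjusted p = 1.70e-05) and CREBBP (−0.52, edgeR adjusted p = 5.89e-05). The cohesin genes SMC1A, SMC3 and RAD21 had log2 fold changes of 0.01, −0.05 and −0.08. Of 11 activators known to bind Mediator subunits, 6 fell (54.5%, against 26.5% of all genes) and 1 rose (9.09%, against 23.6%). CEBPB and ELK1, both of which bind MED23, fell with log2 fold changes of −1.07 (edgeR adjusted p = 3.43e-06) and −0.69 (edgeR adjusted p = 1.64e-05), as did the thyroid hormone receptor gene THRA with −0.60 (edgeR adjusted p = 2.30e-04).

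**Figure D5:**
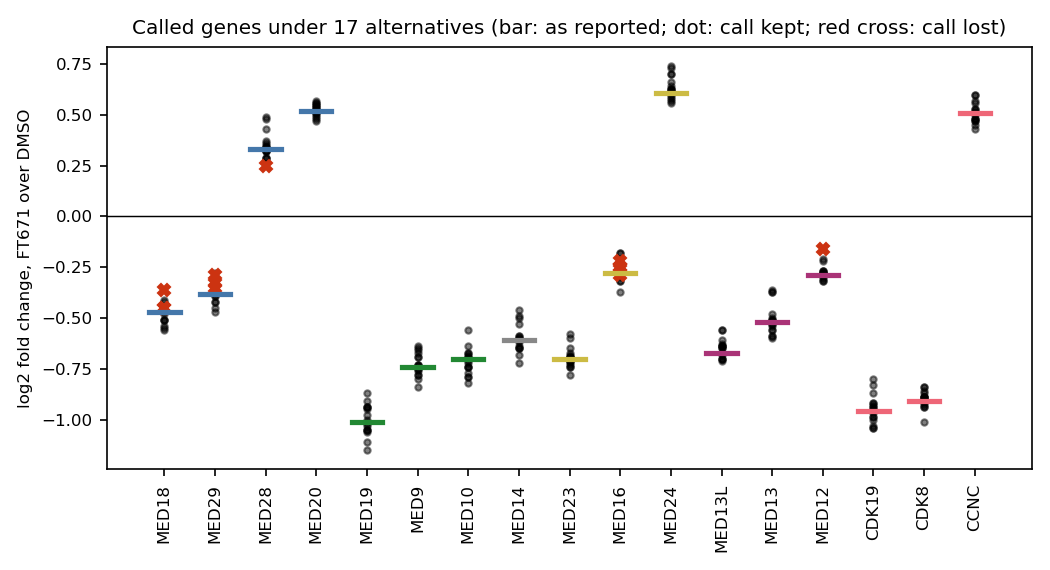
Log2 fold changes of the 14 called Mediator genes and of CDK8, CDK19 and CCNC in 17 alternative analyses, as dots, beside the reported value as a bar, with a red cross where the call was lost. No value crosses 0; MED18, MED29, MED28, MED16 and MED12 lost their call in at least 1 alternative, and the other 9 Mediator genes and the 3 partners kept it.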

How the data were processed

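RNA-seq libraries of K562 cells treated with DMSO or FT671 were analysed (n = 3 per group, grouped by the sample titles). The authors deposited raw read counts per gene, which they had obtained by aligning paired-end reads of ribosomal RNA-depleted libraries to hg38 with STAR. The STAR version, annotation release and strand setting are not given in the sources used here, so that reads of overlapping genes on opposite strands may not be separated. Of 60609 genes, 60340 matched GENCODE release 44, which gave symbols, positions and lengths. Members and lists were chosen with earlier results of these data known.

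Genes were filtered with filterByExpr, scaled by TMM and tested with edgeR 4.0.16 (R 4.3.3, Python 3.11.15), without covariates, with Benjamini-Hochberg adjustment. The standard error is the log2 fold change divided by the square root of F. All members and CDK8, CDK19 and CCNC were named, with the values of every library for those past 0.05 with a log2 fold change over 0.5 in size and for the kinase module and MED14. From each other list the 3 genes with the lowest adjusted p-values were named. CDK7, SMC1A, SMC3, RAD21 and the per-library values of MED15, MED18 and other smaller changes were added after their values were seen. Paralog ratios used a pseudocount of 0.5 and an exact permutation test; that of MED12L, at or under 3 counts, was planned but not computed. Promoter letters were searched on both strands. The ChIP samples were not analysed here. Fits were tested on simulated data. Alternatives were DESeq2 1.42.0 (size factors and Wald test), other scalings and filters, protein-coding genes alone, another module assignment, a replicate block, loess corrections (span 0.3) for length and GC content, and leaving out each library.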

Additional observations from a re-analysis of the deposited data

How the results depend on the processing

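Of the 14 called Mediator genes, 9 kept direction and call in all 17 alternatives, and the losses of the other 5 are given with them above. At an adjusted p of 1e-05 the counts were 574 lower and 249 higher over all genes, and 1 and 0 among members. The member count was 2 and 1 with DESeq2's Wald test, 6 and 1 without the filter, 3 and 1 with the GC correction with or without the block, 1 and 1 with the length correction or the replicate block, 0 and 0 with at least 10 counts in every library or protein-coding genes alone, and from 0 and 0 to 3 and 2 (without DMSO replicate 3) without 1 library in turn. Over all genes this strict count was 1757 and 977 of 31316 without the filter. It was 1173 and 880 of 13895 with DESeq2's Wald test, and 753 and 402 of 13895 with the replicate block. The length correction gave 620 and 518 of 13872 (868 and 864 with the block). The GC correction gave 1011 and 895 of 13872 (945 and 893 with the block). Requiring at least 10 counts gave 531 and 213 of 11946, and protein-coding genes alone 509 and 229 of 11149. Leaving out 1 library gave from 73 and 34 of 13315 (without FT671 replicate 3) to 1501 and 1106 of 14909 (without DMSO replicate 3). Without 1 library in turn, members called ranged from 8 to 12 lower and 2 to 4 higher, and the median log2 fold change from −0.207 to −0.113 (all members), −0.168 to −0.00149 (head), −0.207 to −0.0592 (middle), −0.0906 to 0.00437 (tail) and −0.604 to −0.372 (kinase). The extremes nearest 0 came without FT671 replicate 3 for the head and without DMSO replicate 3 for the middle and kinase modules.

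The study describes 3 independent experiments, but neither it nor the labels states that libraries with the same number share one. Deviations of same-numbered libraries had correlations across genes of 0.115, −0.0605 and 0.14, and not every library correlated best with its own number. With the replicate block 11 members fell and 3 rose, as without it, and 3761 and 3374 of all genes, with medians of −0.166 (all members) and −0.532 (kinase).

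The gene length correction gave a kinase median of −0.362 (−0.373 with the replicate block) and a tail median of 0.101 (0.105 with the block), and with the block −0.0937 for all members. The GC correction gave −0.0548 for the middle module and 0.0233 for the tail (0.0223 with the block). With MED27 to MED30 in the tail and MED19 in the head, the middle median was −0.0609. The cause of these moves was not tested.

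The sign turned for genes without a call. MED11 was at −0.0023 with library totals alone, −0.0048 without the filter and −0.06 with the length correction (−0.067 with the block). MED31 was at −0.032 and MED15 at 0.10 with the length correction (−0.019 and 0.10 with the block), MED15 at 0.023 with the GC correction (0.022 with the block), and MED25 at −0.02 with library totals alone and −0.025 without the filter. Without 1 library in turn, MED6 ranged from −0.26 to 0.045, MED11 from −0.14 to 0.23, MED22 from −0.02 to 0.084, MED31 from −0.09 to 0.17, MED15 from −0.091 to 0.0044, MED25 from −0.031 to 0.074 and the CDK19 to CDK8 ratio from −0.127 to 0.101. Depth limited MED7, MED11 and MED31, with at most 54 counts in any library, and MED12L.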
